A study of Mus musculus with 16 samples.

Results

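The genes analysed here are the proteasome subunit genes, chosen by name as every gene of the count table called Psma, Psmb, Psmc, Psmd, Psme, Psmf or Psmg followed by a number. The rule found 48 genes of 48709 in all. They are 8 alpha and 7 constitutive beta genes of the core particle, 4 immunoproteasome and thymoproteasome beta genes, 9 genes of the base and 8 of the lid of the regulatory particle, 3 base chaperones, 5 activator or inhibitor genes and 4 core chaperones. The series holds 16 RNA libraries from the cerebral cortex of C57BL/6 mice, with no further allele or agent named in the labels. Synaptosomes (SYN), the resealed nerve endings that a density step enriches from homogenised brain, were prepared from mice aged 3 weeks, 5 months and 19 months, with 4 biological replicates at each age. Total homogenate (TH), the unfractionated starting material, was kept from mice aged 5 months, again with 4 libraries. A SYN library of bulk tissue mixes nerve endings with other resealed material, and fewer particles of one origin cannot be told apart in it from less RNA per particle.

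The proteasome degrades proteins that carry ubiquitin chains. Its barrel-shaped core particle has outer rings of alpha subunits, which gate the entrance, and inner rings of beta subunits, of which Psmb5, Psmb6 and Psmb7 carry the active sites. A regulatory particle caps the barrel: its base holds a ring of ATPases that unfolds substrates, and its lid removes ubiquitin. In neurons proteasomes are found at synapses as well as in cell bodies, and activity-dependent protein turnover there relies on them.

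Library depth ran from 10.6 to 21.7 M counts, and the proteasome genes together had 8967 to 27626 counts per library. Mitochondrial ribosomal RNA made up 47.0 ± 4.00% of the total at 3 weeks, 39.3 ± 4.24% at 5 months and 37.9 ± 9.58% at 19 months in SYN, and 19.2 ± 1.91% in 5 months TH (SD, n = 4 each). The nuclear RNA Malat1 stood high in 5 months SYN replicate 4, at 4817 CPM (counts scaled to a common library size). The other 5 months SYN libraries had 947 to 1458 CPM, and 5 months TH had 17009 ± 1446 CPM. The highest mitochondrial share, 52.3%, was that of 19 months SYN replicate 1. Of 10 cortical neuron markers, 4 rose and 2 fell in 5 months SYN relative to 5 months TH. These are 40% and 20%, beside 24.5% and 25.6% of all genes tested. Their summed level was 9161 ± 642 CPM in SYN and 4839 ± 291 CPM in TH. The median log2 fold change was 0.05 with 5 of the 10 below 0, so the sum does not stand for each gene. Astrocyte markers summed to 7517 ± 498 CPM in 5 months SYN and 3285 ± 239 CPM in 5 months TH, and 9 of 10 rose. Oligodendrocyte markers summed to 8774 ± 1248 CPM at 3 weeks, 2638 ± 264 CPM at 5 months and 2702 ± 412 CPM at 19 months in SYN, and to 1634 ± 80.8 CPM in 5 months TH.

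All CPM values below share 1 scaling over the 16 libraries. The proteasome genes together reached 936 ± 35.6 CPM at 3 weeks, 856 ± 40.2 CPM at 5 months and 838 ± 16.5 CPM at 19 months in SYN, and 933 ± 25 CPM in 5 months TH (SD, n = 4 each). All 4 libraries of 5 months SYN, at 819 to 911 CPM, lay below the lowest 5 months TH library, though that library was also at 911 CPM. The 19 months SYN libraries spanned 825 to 861 CPM and did not overlap with the 3 weeks SYN libraries, which spanned 889 to 969 CPM.

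Per kilobase of gene length (RPKM, CPM divided by the length in the deposited table), subunits of one particle differed widely in level. In 5 months SYN the highest levels were those of Psmc5, a base ATPase, at 36.8 ± 2.16 RPKM, and Psmd7, a lid subunit that pairs with the lid deubiquitinase, at 33.6 ± 2.94 RPKM. Psmc1 and Psmc3, a further pair of ATPases, followed at 25.1 ± 3.39 and 24.5 ± 3.12 RPKM, then the ubiquitin receptor Psmd4 at 23.2 ± 1.31 RPKM. These first 5 stood in the same order in 5 months TH, from 28.3 ± 1.03 RPKM for Psmc5 to 21.7 ± 0.728 RPKM for Psmd4. The TH levels of Psmc1, Psmc3 and Psmd4 differed by less than the spread of Psmc1. The median gene of the base stood at 14.1 RPKM in 5 months SYN and 19.6 RPKM in 5 months TH, that of the lid at 5.76 and 6.85 RPKM, that of the 8 alpha genes at 3.83 and 5.28 RPKM, and that of the constitutive beta ring at 4.37 and 5.79 RPKM. The lengths are those of the deposited table, and for some members they differ from the exon length in GENCODE vM21: 1036 bases against 4595 for Psmb1, and 1564 against 3498 for Psmc6. A level per length carries that uncertainty.

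The comparison of 5 months SYN with 5 months TH asks which transcripts are enriched or depleted in the synaptic fraction. Of 44 proteasome genes with enough counts to test, 3 rose and 15 fell in SYN, and 26 were not called. The called share, 40.9%, stood beside 50.1% of all 17374 genes tested (edgeR quasi-likelihood test, Benjamini-Hochberg adjusted p under 0.05). By direction, 6.82% of the proteasome genes rose against 24.5% of all genes, and 34.1% fell against 25.6% of all genes. The median log2 fold change was -0.20 over the proteasome genes and -0.05 over all genes tested. With upper-quartile scaling the split was 1 higher and 21 lower, the medians were -0.34 and -0.19, and the share of higher genes among all called genes was 37.9% in place of 48.8%.

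In the core particle, no constitutive gene rose and 7 of 14 fell, with a median log2 fold change of -0.43. By ring, 71.4% of the tested alpha genes and 28.6% of the beta genes fell, beside 25.6% of all genes. Of all genes 24.5% rose. The fall was seen in 5 of 7 alpha genes, Psma1, Psma2, Psma3, Psma5 and Psma6, while Psma4 and Psma7 had log2 fold changes of 0.04 and -0.03. Psma1, an alpha ring subunit, had 7.30, 8.30, 6.20 and 10.4 CPM in 5 months SYN, against 15.8, 16.1, 17.7 and 18.0 CPM in 5 months TH. Every SYN library lay below every TH library, and the log2 fold change was -1.05 (SE 0.160, adjusted p = 7.47e-05). Psma5, another alpha subunit, had 2, 3, 1 and 30 counts in 5 months SYN, or 0.157, 0.224, 0.0816 and 1.79 CPM, and 39, 66, 80 and 71 counts in 5 months TH. SYN replicate 4, the library with high Malat1, stood apart from the other 3. The log2 fold change of Psma5 was -2.02 (SE 0.662, adjusted p = 0.0206) and became -3.95 without SYN replicate 4. Of the Psma5 transcript, 55.4% of all 50-base windows also occur in transcripts of other genes, chiefly the pseudogene Gm8394, and reads of such windows may be missing from the counts.

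Among the constitutive beta genes, Psmb3 and Psmb7 fell and the other 5 were not called. Psmb7, which carries the trypsin-like site, had 13.5, 15.3, 13.9 and 17.1 CPM in 5 months SYN, against 21.2, 19.5, 18.2 and 20.2 CPM in 5 months TH. The groups did not overlap, and the log2 fold change was -0.39 (SE 0.120, adjusted p = 0.0141). Psmb6, with the caspase-like site, had 11.9, 15.4, 12.6 and 15.2 CPM in 5 months SYN and 14.3, 14.1, 14.4 and 11.2 CPM in 5 months TH. These values overlapped, with a log2 fold change of 0.05 and a 95% interval from -0.23 to 0.32, and the sign turned with other scalings. Psmb5, with the chymotrypsin-like site, had 3.69, 3.59, 1.3 and 2.93 CPM in 5 months SYN and 3.17, 3.38, 3.19 and 2.62 CPM in 5 months TH. SYN replicate 3 was the low one, the log2 fold change was -0.09 with a 95% interval from -0.72 to 0.54, and 57.1% of the Psmb5 windows are shared with other transcripts. Psmb3, a structural beta subunit, averaged 1.15 ± 0.504 CPM in 5 months SYN and 2.88 ± 0.479 CPM in 5 months TH (SD, n = 4 each), with a log2 fold change of -1.32 (adjusted p = 0.00761) and 55.8% of windows shared.

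Of the 17 genes of the regulatory particle 3 rose and 6 fell, with a median log2 fold change of -0.13. By part, the median was 0.11 over the base, with 4 of 9 below 0, and -0.27 over the lid, with 7 of 8 below 0. In the base 22.2% rose and 33.3% fell, and in the lid 12.5% rose and 37.5% fell. Of all genes tested 24.5% rose and 25.6% fell, so calls in both directions are not particular to this particle. In the base, the ATPase gene Psmc5 rose while its ring partners Psmc2, Psmc4 and Psmc6 fell. The remaining ATPase genes of the ring, Psmc1 and Psmc3, were not called. Psmc5 had 54.5, 47.6, 52.8 and 50.3 CPM in 5 months SYN, against 40.9, 37.5, 40.0 and 39.4 CPM in 5 months TH, a log2 fold change of 0.39 (SE 0.0817, adjusted p = 0.00108). All SYN libraries lay above all TH libraries for Psmc5. Psmc4 did the reverse, with 18.3, 15.7, 17.0 and 17.8 CPM in 5 months SYN and 22.2, 25, 26.3 and 29.4 CPM in 5 months TH, a log2 fold change of -0.57 (SE 0.116, adjusted p = 0.000811). Psmc6 and Psmc2 had log2 fold changes of -0.46 and -0.44 (adjusted p = 0.0011 and 0.00709). Psmd2, the large scaffold of the base, had 52.5, 54.7, 53.3 and 48.6 CPM in 5 months SYN and 47.1, 45.2, 43.2 and 44.4 CPM in 5 months TH. The groups did not overlap, but the difference was small, a log2 fold change of 0.23 (SE 0.0782, adjusted p = 0.0244), and 0.09 with upper-quartile scaling, where it was not called (adjusted p = 0.369). The call of Psmd2 also ended with DESeq2 size factors, with the DESeq2 Wald test and with no filter.

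In the lid, Psmd7 rose and Psmd6, Psmd11 and Psmd12 fell. Psmd7 had 82.7, 70.1, 70.5 and 80.9 CPM in 5 months SYN and 72.9, 60.8, 51.8 and 48.6 CPM in 5 months TH. TH replicate 1 overlapped with SYN, the log2 fold change was 0.39 (SE 0.118, adjusted p = 0.0128), and with upper-quartile scaling it was 0.25 and not called (adjusted p = 0.0873). Psmd14, the deubiquitinase of the lid and the partner of Psmd7, had 14.9, 13.7, 7.42 and 15.3 CPM in 5 months SYN and 15.9, 15.7, 15.9 and 20.5 CPM in 5 months TH. All SYN libraries lay below all TH libraries, yet the spread was wide and the log2 fold change of -0.39 was not called (SE 0.191, adjusted p = 0.103). Psmd14 was called lower under 5 alternatives, with adjusted p of 0.0310 with upper-quartile scaling, 0.0436 with all 16 libraries in the fit, 0.0451 without SYN replicate 4, 0.0462 with the replicate number as a block (the replicate block) and 0.0484 with no filter. Psmd11, which bridges the lid and the core, had a log2 fold change of -0.61 (SE 0.198, adjusted p = 0.0194), Psmd6 one of -0.51 (adjusted p = 0.0132) and Psmd12 one of -0.34 (adjusted p = 0.0337).

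The largest difference per SE was that of Psme4, a large single-chain activator of the core known mainly from nuclei. Psme4 had 21.2, 23.9, 22.6 and 24.3 CPM in 5 months SYN, against 52.4, 60.3, 53.5 and 57.0 CPM in 5 months TH. The highest SYN library was far below the lowest TH library, and the log2 fold change was -1.27 (SE 0.0906, adjusted p = 3.86e-08). Psmf1, named as an inhibitor of the core and described in neurons as an adaptor for axonal transport of proteasomes, fell as well. It had 7.77, 7.78, 4.65 and 6.45 CPM in 5 months SYN, against 12.3, 13.9, 12.3 and 13.3 CPM in 5 months TH, a log2 fold change of -0.95 (SE 0.171, adjusted p = 0.000327), with no overlap. Psme1, a subunit of the interferon-inducible activator, had 20.01, 14.8, 12.2 and 13.9 CPM in 5 months SYN and 13.8, 12.6, 12.1 and 10.7 CPM in 5 months TH, a log2 fold change of 0.32 that was not called (adjusted p = 0.105). Without SYN replicate 3 it was 0.41 and just called (adjusted p = 0.0499). Psme3, the nuclear activator of the same family, had 37.4, 35.1, 38.3 and 35.1 CPM in 5 months SYN and 33.4, 31.5, 33.1 and 34.3 CPM in 5 months TH. All SYN values were above all TH values, but the log2 fold change of 0.15 was not called (adjusted p = 0.15). The 8 nuclear RNAs of a marker list all fell in SYN, with a median log2 fold change of -2.70 and summed levels of 1654 to 6978 CPM in 5 months SYN and 21035 to 25029 CPM in 5 months TH; of 12 endothelial and mural markers 11 fell, with summed levels of 42.9 to 75.4 CPM in SYN and 193 to 305 CPM in TH. The part of both in the lower members was not tested. Each of these markers had a mean above 0 in both groups, and microglia, astrocyte and oligodendrocyte markers were higher in SYN (11 of 11, 9 of 10 and 8 of 10).

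The 3 base chaperones and the 4 core chaperones were not called in this comparison, though alternatives called some of them lower. Psmd5 was called with the replicate block, with all 16 libraries in the fit, with the DESeq2 Wald test, with upper-quartile scaling and without SYN replicate 1, Psmd9 with upper-quartile scaling and Psmg3 without SYN replicate 1. Psmd5 and Psmd9, chaperones that help assemble the base, had log2 fold changes of -0.47 and -0.40 (adjusted p = 0.0897 and 0.132), and Psmg3, a core chaperone, one of -1.15 (SE 0.562, adjusted p = 0.103) at a mean of 0.695 CPM in 5 months SYN and 1.57 CPM in 5 months TH. Leaving out 1 library in turn ended 6 of the 18 calls, those of Psma2, Psma5, Psma6, Psmd2, Psmd11 and Psmd12, with adjusted p between 0.0507 and 0.1 (edgeR). SYN replicate 1 bore on Psma5, SYN replicate 2 on all of them but Psmd11, SYN replicate 3 on Psma6, Psmd2 and Psmd12, and SYN replicate 4 on Psmd12. TH replicate 1 bore on Psma2, Psmd11 and Psmd12, TH replicate 2 on Psma6 and Psmd12, TH replicate 3 on Psma5, Psma6, Psmd2 and Psmd12, and TH replicate 4 on Psma2, Psma6 and Psmd12. The other 12 calls held in each of these fits. Among other members, Psmb1 was called lower without SYN replicate 4 and Psmb2 without SYN replicate 3. Without SYN replicate 4, the library with high Malat1, 3 genes rose and 16 fell.

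**Figure D1:**
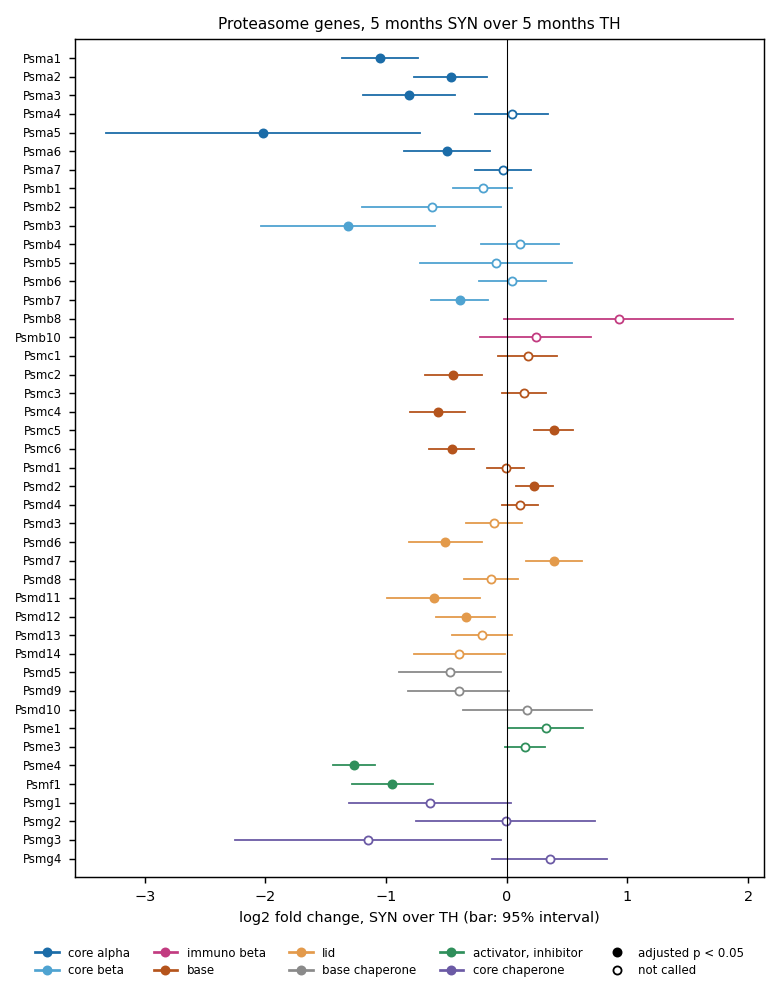
Log2 fold change of each tested proteasome gene in 5 months SYN over 5 months TH (horizontal axis) with its 95% interval, 1 gene per line and coloured by class; filled points passed the adjusted p of 0.05. Psme4, Psma1 and Psmf1 lie left of 0 with intervals that do not reach it, and Psmc5, Psmd7 and Psmd2 are the 3 filled points right of 0.

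The age comparisons ask how SYN transcripts change between juvenile, adult and aged mice. At 5 months against 3 weeks, 3 of 43 tested proteasome genes rose and 11 fell, a called share of 32.6% beside 24.6% of all 15344 genes tested. Higher members were 6.98% against 13.3% of all genes, and lower members 25.6% against 11.3%. The median log2 fold change was -0.24 over the proteasome genes and 0.00 over all genes. At 19 months against 3 weeks, 1 gene rose and 10 fell, or 25.6% called beside 19.4% of all genes; lower members were 23.3% against 9.44%, and higher members 2.33% against 10%. The median was -0.17 over the proteasome genes. Oligodendrocyte markers, 9 of 10 of which fell in both comparisons, summed to 7439 to 10302 CPM at 3 weeks, 2337 to 2893 CPM at 5 months and 2333 to 3242 CPM at 19 months, with none at a mean of 0. Of 8 nuclear RNAs, 5 rose at 5 months against 3 weeks and none was called at 19 months against 3 weeks, with summed levels of 904 to 1221 CPM at 3 weeks, 1654 to 6978 CPM at 5 months and 1727 to 2629 CPM at 19 months. The part of both lists in the changes of the proteasome genes was not tested. Without 5 months SYN replicate 4 the first comparison had 3 higher and 9 lower members, and without 19 months SYN replicate 1 the second had 1 higher and 9 lower. Both comparisons share the 3 weeks libraries, so their values stand side by side here and are not independent of each other.

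In the core particle, 6 of 13 tested constitutive genes fell and none rose at 5 months against 3 weeks, with a median log2 fold change of -0.43. At 19 months against 3 weeks 5 of the 13 fell and none rose, with a median of -0.36. At 5 months 50% of the tested alpha genes and 42.9% of the beta genes fell, beside 11.3% of all genes. At 19 months these shares were 50% and 28.6%, beside 9.44% of all genes. Psma6, an alpha subunit, had 19.6, 21.4, 22.6 and 18.0 CPM at 3 weeks, 13.7, 8.0, 9.87 and 11.5 CPM at 5 months, and 12.9, 15.0, 12.4 and 13.0 CPM at 19 months. Both older ages lay wholly below 3 weeks. Its log2 fold change was -0.90 (SE 0.155, adjusted p = 9.71e-05) at 5 months and -0.60 (SE 0.154, adjusted p = 0.00586) at 19 months, each against 3 weeks. Psma1 had 11.4, 18.1, 15.0 and 14.3 CPM at 3 weeks, 7.30, 8.30, 6.20 and 10.4 CPM at 5 months, and 8.66, 11.7, 9.04 and 9.64 CPM at 19 months. The 5 months libraries did not overlap with 3 weeks, with a log2 fold change of -0.85 (SE 0.179, adjusted p = 0.000936), while the 19 months libraries overlapped, with -0.58 (SE 0.179, adjusted p = 0.021).

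Psmb2, a structural beta subunit, had 6.93, 6.47, 6.81 and 6.90 CPM at 3 weeks, 2.51, 4.79, 5.95 and 2.45 CPM at 5 months, and 6.65, 4.30, 6.45 and 3.12 CPM at 19 months. The 3 weeks libraries lay close together and the older ones were spread, and the log2 fold change was -0.78 at 5 months (SE 0.270, adjusted p = 0.0341) and -0.40, not called, at 19 months (adjusted p = 0.325). Psmb7 had 20.6, 22.2, 25.8 and 23.2 CPM at 3 weeks, 13.5, 15.3, 13.9 and 17.1 CPM at 5 months, and 19.7, 16.6, 15.1 and 17.2 CPM at 19 months. No older library reached the lowest 3 weeks one, and the log2 fold changes were -0.60 (adjusted p = 0.00137) at 5 months and -0.42 (adjusted p = 0.0256) at 19 months. Psmb1, a structural beta subunit, fell by 0.63 and by 0.47 on the log2 scale at the same ages (adjusted p = 0.00115 and 0.0145). Psmb6 had 19.0, 17.6, 18.1 and 17.7 CPM at 3 weeks, 11.9, 15.4, 12.6 and 15.2 CPM at 5 months, and 14.1, 12.1, 14.1 and 16.7 CPM at 19 months. All 3 weeks libraries of Psmb6 were higher than every older one, yet its log2 fold changes of -0.37 and -0.34 missed the threshold (adjusted p = 0.052 and 0.0902). The 5 months change of Psmb6 was called under 6 alternatives, with adjusted p from 0.0359 to 0.0493, among them the replicate block, the DESeq2 Wald test and the fit without 5 months SYN replicate 4. Psmb5 had 2.61, 4.05, 4.03 and 5.00 CPM at 3 weeks, 3.69, 3.59, 1.3 and 2.93 CPM at 5 months and 4.74, 3.33, 3.14 and 2.48 CPM at 19 months, and these values overlapped at all ages.

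In the regulatory particle, 3 of 17 genes rose and 4 fell at 5 months against 3 weeks, and 1 rose and 5 fell at 19 months against 3 weeks. At 5 months 22.2% of the base rose and 22.2% fell, and 12.5% of the lid rose and 25% fell. Of all genes 13.3% rose and 11.3% fell. At 19 months 11.1% of the base rose and 22.2% fell, and 0% of the lid rose and 37.5% fell. Of all genes 10% rose and 9.44% fell. Psmc5 had 44.3, 36.7, 38.8 and 36.3 CPM at 3 weeks, 54.5, 47.6, 52.8 and 50.3 CPM at 5 months, and 49.1, 45.3, 47.9 and 52.3 CPM at 19 months. Every older library was above every 3 weeks library, with log2 fold changes of 0.41 (SE 0.0984, adjusted p = 0.00282) at 5 months and 0.32 (SE 0.0990, adjusted p = 0.0203) at 19 months. Psmd7 had 58.5, 48.1, 44.7 and 65.0 CPM at 3 weeks, 82.7, 70.1, 70.5 and 80.9 CPM at 5 months, and 51.5, 58.5, 59.7 and 67.1 CPM at 19 months. All 5 months libraries were above all 3 weeks libraries, with a log2 fold change of 0.51 (SE 0.112, adjusted p = 0.00123), while the 19 months libraries overlapped with 3 weeks, with 0.14 and no call (adjusted p = 0.43). The ATPase gene Psmc1 rose at 5 months, with 43.4, 31.9, 40.9 and 35.9 CPM at 5 months, against 27.3, 29.0, 28.1 and 36.3 CPM at 3 weeks. These groups overlapped, and the log2 fold change was 0.35 (SE 0.116, adjusted p = 0.0278).

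Psmd13, a lid subunit, had 24, 19.5, 22.98 and 20.5 CPM at 3 weeks, 16.3, 15.2, 12.7 and 14.3 CPM at 5 months, and 14.8, 12.5, 15.2 and 11.3 CPM at 19 months. The older ages overlapped with each other and not with 3 weeks, with log2 fold changes of -0.55 (SE 0.138, adjusted p = 0.00407) and -0.69 (SE 0.140, adjusted p = 0.000758). Psmd8, a lid subunit, fell by 0.58 and by 0.50 on the log2 scale at 5 and 19 months (adjusted p = 0.000445 and 0.00243), and Psmc4 by 0.63 and by 0.44 (adjusted p = 0.000256 and 0.00824). Psmd2 fell by 0.27 and by 0.31 (adjusted p = 0.0346 and 0.0191), in contrast to its higher level in 5 months SYN over 5 months TH. Psmd3, a lid scaffold subunit, had a log2 fold change of -0.54 at 19 months (adjusted p = 0.00163) and of -0.29, not called, at 5 months (adjusted p = 0.071). Psmd14 had 17.0, 15.0, 14.8 and 15.2 CPM at 3 weeks, 14.9, 13.7, 7.42 and 15.3 CPM at 5 months, and 10.5, 13.6, 11.99 and 11.02 CPM at 19 months. The 19 months libraries were all below 3 weeks, without a call (log2 fold change -0.39, adjusted p = 0.13).

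Of the activators and the inhibitor, Psmf1 alone was called with age. Psmf1 had 11.2, 9.61, 11.7 and 7.81 CPM at 3 weeks, 7.77, 7.78, 4.65 and 6.45 CPM at 5 months, and 10.8, 5.82, 6.82 and 7.44 CPM at 19 months. The 5 months libraries all lay below 3 weeks, narrowly, and 1 of the 19 months libraries did not. Its log2 fold change was -0.58 at 5 months against 3 weeks (SE 0.207, adjusted p = 0.0405) and -0.39 at 19 months against 3 weeks (adjusted p = 0.205). Psme4 had 26.8, 26.2, 27.4 and 29.2 CPM at 3 weeks, 21.2, 23.9, 22.6 and 24.3 CPM at 5 months, and 29.4, 19.9, 22.9 and 25.2 CPM at 19 months. All SYN ages of Psme4 stood below the lowest TH library, 52.4 CPM, and the age changes of -0.24 and -0.17 were not called (adjusted p = 0.163 and 0.369). Psme3 had 42.7, 36.6, 38.5 and 33.3 CPM at 3 weeks, 37.4, 35.1, 38.3 and 35.1 CPM at 5 months, and 43.5, 41.7, 39.5 and 37.2 CPM at 19 months, and Psme1 spanned 10.2 to 20.4 CPM at 3 weeks, 12.2 to 20.01 CPM at 5 months and 15.4 to 19.0 CPM at 19 months. Both overlapped at all ages, with 95% intervals of the 5 months change from -0.23 to 0.17 for Psme3 and from -0.33 to 0.41 for Psme1.

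Leaving out 1 library in turn ended 4 of the 14 calls at 5 months against 3 weeks, those of Psmb2, Psmc1, Psmd2 and Psmf1, each in 5 of the 8 such fits and with adjusted p between 0.0514 and 0.139. At 19 months against 3 weeks it ended 6 of 11 calls, those of Psma1, Psma7, Psmb1, Psmb7, Psmc5 and Psmd2, with adjusted p between 0.0513 and 0.111. Without 3 weeks replicate 3 this comparison had 7 calls, and without 19 months replicate 4 it had 6. The only higher member there, Psmc5, was lost without 3 weeks replicate 2, 3 or 4 or without 19 months replicate 4. The calls of Psma6, Psmc4, Psmd8 and Psmd13 held in every such fit of both comparisons, and Psmd3 held in those at 19 months.

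No proteasome gene of 43 tested was called at 19 months against 5 months with edgeR, where 0.3% of all genes were called, 0.13% higher and 0.169% lower. At an unadjusted p under 0.05 there were 6, Psma2, Psmb4, Psmb10, Psmd3, Psmd4 and Psmd7, and the smallest adjusted p was 0.116. The DESeq2 Wald test called 1, Psma2 (higher), which was also called with no filter. Psma2, an alpha subunit, had 14.9, 13.9, 15.0 and 7.99 CPM at 19 months, against 8.08, 6.88, 8.89 and 9.56 CPM at 5 months, so that 3 of 4 older libraries were higher and replicate 4 was not. Its log2 fold change was 0.62 (SE 0.184, adjusted p = 0.116), and its 3 weeks values were 13.4, 13.3, 14.6 and 11.1 CPM. Psmd7 was lower in every 19 months library than in every 5 months one, with a log2 fold change of -0.37 (SE 0.112, adjusted p = 0.12), and it was called lower with no filter and with the replicate block. Median log2 fold changes were 0.16 over the 13 tested core genes and -0.13 over the 17 genes of the regulatory particle, beside -0.00 over all genes.

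**Figure D2:**
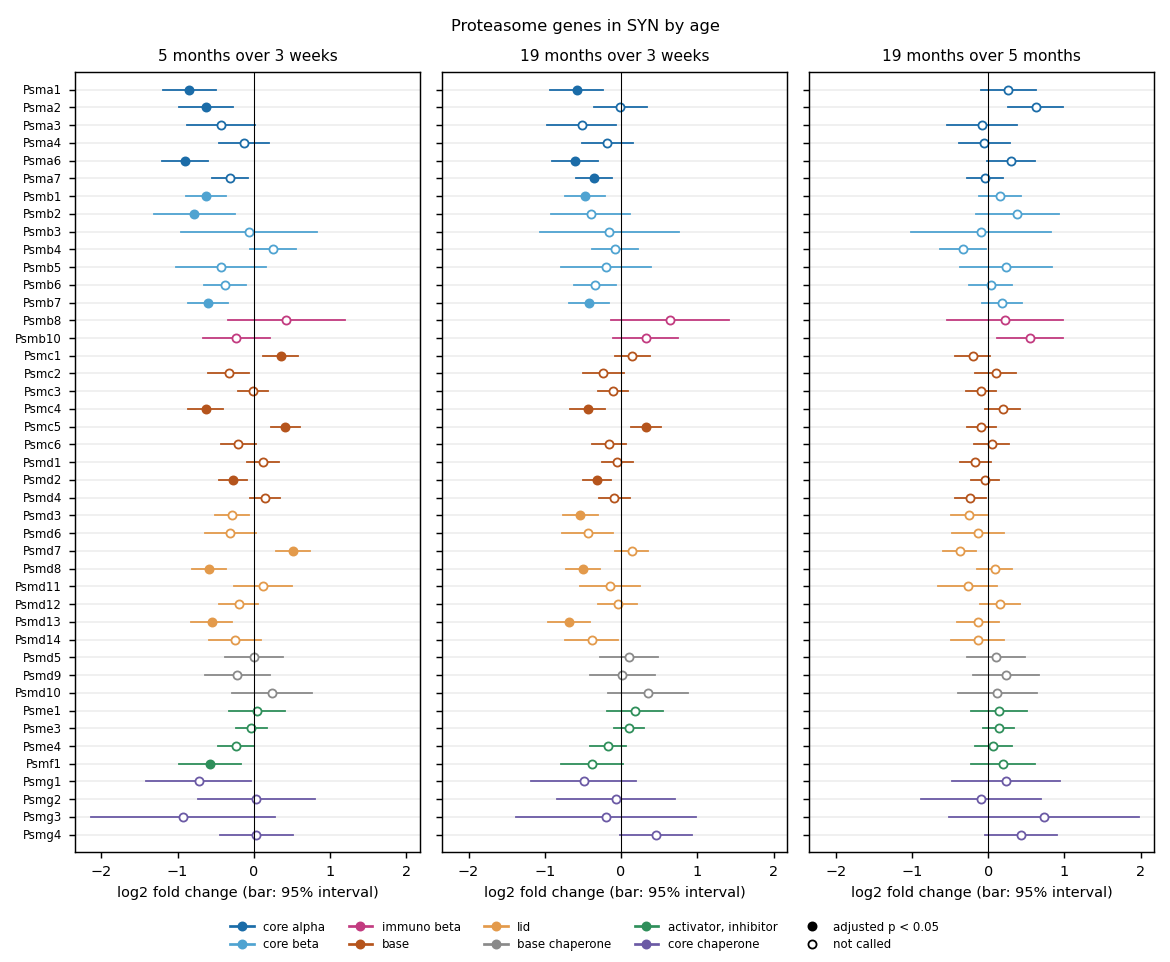
Log2 fold change of each tested proteasome gene between ages of SYN (horizontal axis, 1 panel per comparison, the later age over the earlier) with its 95% interval, coloured by class; filled points passed the adjusted p of 0.05. Filled points lie mostly left of 0 in both comparisons with 3 weeks, Psmc5 is filled right of 0 in both, and the 19 months over 5 months panel has no filled point.

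**Figure D3:**
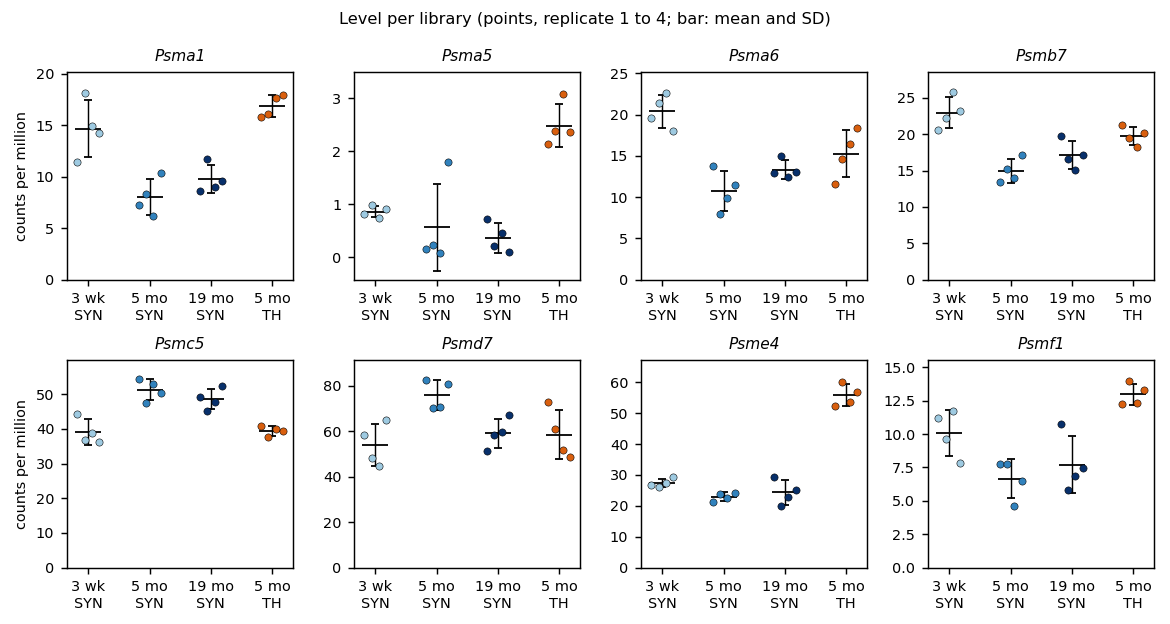
CPM of 8 proteasome genes (vertical axes, each from its own scale) in the 4 libraries of each group, with the group mean and SD as bars. Psme4 and Psmf1 separate 5 months TH from 5 months SYN, Psma1, Psma6 and Psmb7 are lower at 5 months than at 3 weeks, Psmc5 and Psmd7 are higher, and 1 library of 5 months SYN stands apart for Psma5.

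The immunoproteasome subunits Psmb8, Psmb9 and Psmb10 replace Psmb5, Psmb6 and Psmb7 in cells that respond to interferon, and in brain they are known mainly from microglia and other immune cells. Psmb8 had 1.06, 1.5, 1.99 and 1.20 CPM at 3 weeks, 2.51, 2.84, 0.897 and 1.49 CPM at 5 months and 2.83, 1.66, 2.77 and 1.84 CPM at 19 months in SYN, and 1.80, 0.900, 0.614 and 0.830 CPM in 5 months TH. The groups overlapped, and no change was called: the log2 fold change was 0.93 in 5 months SYN over 5 months TH (SE 0.483, adjusted p = 0.126) and 0.64 at 19 months over 3 weeks (adjusted p = 0.275). Psmb10 had 4.32, 5.36, 5.11 and 5.07 CPM at 3 weeks, 4.71, 5.16, 3.75 and 3.23 CPM at 5 months and 5.83, 5.82, 7.93 and 5.23 CPM at 19 months in SYN, and 3.60, 3.56, 3.61 and 3.55 CPM in 5 months TH. All 19 months libraries of Psmb10 exceeded all 5 months SYN libraries, with a log2 fold change of 0.55 that was not called (SE 0.223, adjusted p = 0.26). Psmb9 had 0 to 10 counts in the 16 libraries and was not tested.

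Set against its constitutive counterpart within each library, Psmb8 had 0.377 ± 0.105 counts per Psmb5 count at 3 weeks, 0.668 ± 0.117 at 5 months and 0.680 ± 0.167 at 19 months in SYN, and 0.336 ± 0.163 in 5 months TH (SD, n = 4 each). At 5 months the lowest SYN library, 0.510, lay below the highest TH library, 0.569, and above the other 3. Psmb10 had 0.217 ± 0.0184 counts per Psmb7 count at 3 weeks, 0.286 ± 0.0740 at 5 months and 0.369 ± 0.106 at 19 months in SYN, and 0.182 ± 0.0123 in 5 months TH. The 19 months libraries of this ratio, 0.296 to 0.524, lay above the 3 weeks libraries, 0.198 to 0.241. Its denominator Psmb7 was called lower, at -0.60 at 5 months over 3 weeks, -0.42 at 19 months over 3 weeks and -0.39 in SYN over TH. Psmb10 itself had -0.23, 0.32 and 0.24 in the same comparisons, none of them called. The 5 months SYN libraries of this ratio, 0.189 to 0.349, overlapped with the 3 weeks libraries. The part of either gene in the ratio was not tested. Psmb9 stayed at 0.0146 to 0.0257 counts per Psmb6 count in the group means. These ratios are descriptions of the libraries, and those of Psmb8 rest on 88 to 106 summed Psmb8 counts per group and on Psmb5 counts that shared sequence may reduce.

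Microglia markers are given beside these ratios. Their summed level over 11 genes was 169 to 250 CPM at 3 weeks, 237 to 283 CPM at 5 months and 297 to 455 CPM at 19 months in SYN, and 112 to 121 CPM in 5 months TH, with no marker at a mean of 0 in any group. All 11 rose in 5 months SYN over 5 months TH, 7 rose at 19 months over 3 weeks, and 1 rose at 19 months over 5 months. Of 10 genes of antigen processing for MHC class I, which the immunoproteasome feeds, 3 rose and 2 fell in 5 months SYN over 5 months TH, or 30% and 20%, beside 24.5% and 25.6% of all genes. At 19 months over 3 weeks 4 of 9 tested rose, or 44.4% beside 10% of all genes, and none fell. B2m, the invariant MHC class I chain, had log2 fold changes of 0.72 and 0.61 in these comparisons, and Tapbp, which loads peptides, had 0.81 and 0.47, all called. In 5 months SYN over 5 months TH the list ran from -2.03 to 0.81, with a median of -0.02 and 5 of 10 below 0. At 19 months over 3 weeks its median was 0.27, with 2 of 9 below 0. The part of microglia in the immunosubunit values was not tested.

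**Figure D4:**
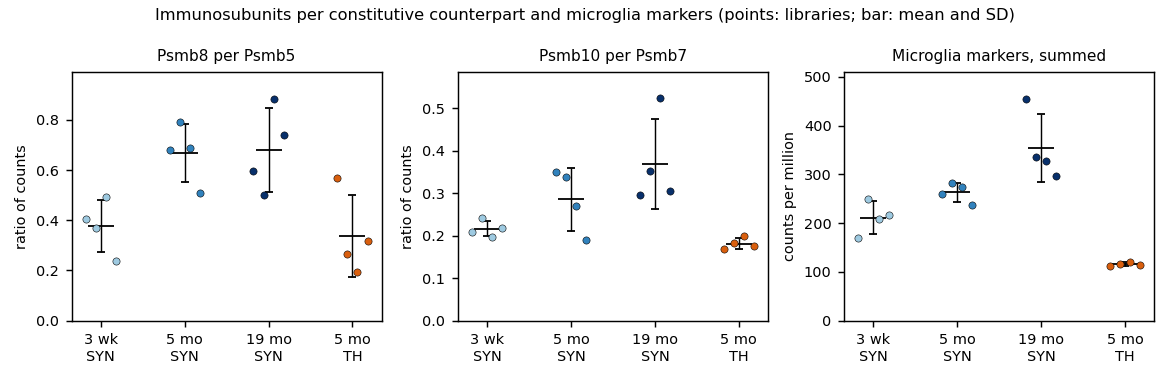
Psmb8 counts per Psmb5 count, Psmb10 counts per Psmb7 count and the summed CPM of 11 microglia markers (vertical axes) in each library, with the group mean and SD as bars. All 3 measures are lowest on average in 5 months TH and highest on average in 19 months SYN. A ratio also rises where its denominator falls, and Psmb7 was called lower in 5 months SYN than in 3 weeks SYN and 5 months TH.

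Beside Psmb9, 3 members did not pass the filter on low counts in either fit, and Psma5 did not in the fit of the ages. Psma8, the testis-specific alpha subunit, had 0 to 6 counts per library, Psmb11, the thymus-specific beta subunit, 0 to 7, and Psme2, the partner of Psme1 in the interferon-inducible activator, 0 to 11. Of the Psme2 transcript, 59.3% of all 50-base windows are also found in other genes, in its near-identical relative Psme2b, which had 62 to 155 counts per library, and reads of these windows may be missing from the Psme2 counts. Shared windows also made up 31.5% for Psma4, 26.4% for Psmd2, 22.7% for Psmg3 and 22.0% for Psma3. They made up 18.9% for Psmd11, 17.6% for Psmc1, 15.8% for Psmd13 and 14.1% for Psme1. In contrast, Psma1, Psma6, Psmc5, Psmd7, Psme4 and Psmf1 shared none. For Psmb7 shared windows made up 28.1%, all in Nek6, a gene that overlaps it on the opposite strand. On the opposite strand, exons of Psmb7 overlap Nek6 by 405 bases, those of Psmb8 overlap Gm20496 by 498 bases and those of Psmb9 overlap Tap1 by 212 bases. Those of Psmd9 overlap Gm26745 by 1849 bases, Psmd13 Sirt3 by 342, Psmd1 Htr2b by 252 and Psmc3 Slc39a13 by 215. Shorter overlaps of this kind were found for Psma4, Psma5, Psmd3 and Psme1. Whether counting used strand is not given in the sources used here.

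Proteasome partners outside the name rule were 22 genes, of which 4 rose and 6 fell in 5 months SYN over 5 months TH. These shares, 18.2% and 27.3%, are near those of all genes, 24.5% and 25.6%. Nfe2l1, the transcription factor that drives proteasome genes when degradation is impaired, rose: it averaged 296 ± 11.6 CPM in 5 months SYN and 140 ± 6.38 CPM in 5 months TH (SD, n = 4 each), a log2 fold change of 1.09 (SE 0.0696, adjusted p = 1.28e-08). It was also higher at 5 months and at 19 months than at 3 weeks, by 0.43 and 0.33 on the log2 scale (adjusted p = 0.000401 and 0.00457). Ubqln4, a shuttle that carries ubiquitinated proteins to the proteasome, averaged 79.6 ± 3.34 CPM in 5 months SYN and 38.2 ± 1.57 CPM in 5 months TH, a log2 fold change of 1.07 (adjusted p = 4.00e-08). Its relative Ubqln2 rose by 0.38 (adjusted p = 0.00171), and Zfand2a, a stress-induced regulator of the particle, by 0.83 (adjusted p = 8.64e-06). AI314180, also known as Ecpas and a scaffold that tethers proteasomes, fell by 0.65 (adjusted p = 6.23e-06), and Usp14, a deubiquitinase bound to the base, by 0.58 (adjusted p = 0.00333). Txnl1, Fbxo7, Ufd1l and Zfand5 also fell, while Pomp, which matures the core, had a log2 fold change of -0.08 without a call.

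With age, 2 partners rose and 4 fell at 5 months over 3 weeks, or 9.09% and 18.2%, beside 13.3% and 11.3% of all genes. At 19 months over 3 weeks 3 rose and 7 fell, or 13.6% and 31.8%, beside 10% and 9.44% of all genes. Usp14 fell by 0.49 and by 0.57 on the log2 scale in these comparisons (adjusted p = 0.0119 and 0.00528), and Zfand5, a proteasome activator, by 0.62 and by 0.46. Ubqln4 rose by 0.42 and by 0.44 (adjusted p = 0.000881 and 0.000783), while Ubqln2 fell by 0.33 and by 0.49 (adjusted p = 0.00731 and 0.000201). Of 26 genes of ubiquitin and its ligases, 5 rose and 11 fell in 5 months SYN over 5 months TH, or 19.2% and 42.3%, beside 24.5% and 25.6% of all genes. Of the same genes 1 rose and 6 fell at 5 months over 3 weeks, or 3.85% and 23.1%, beside 13.3% and 11.3% of all genes, and 4 fell at 19 months over 3 weeks, or 15.4% beside 9.44%. Median log2 fold changes of that list were -0.20, -0.13 and -0.13. No gene of either list was called at 19 months over 5 months.

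Splicing of proteasome genes between ages was taken from the authors' deposited tables. LeafCutter, which compares the use of introns that share a splice site, had 10 intron clusters in members and tested 7 in each comparison. In the authors' deposited table, the Psme3 cluster was called at 5 months against 3 weeks (adjusted p = 0.00318), where 6.61% of 4250 clusters were called. No other member cluster passed there, the nearest being that of Psmd4 (adjusted p = 0.0873). At 19 months against 3 weeks the authors' deposited table gave the Psme3 cluster an adjusted p of 0.119, with 4.81% of clusters called, and at 19 months against 5 months one of 0.402, with 0.768% called. Psme3 lies on chromosome 11 at 101316213 to 101323537 of GRCm38, on the plus strand. The cluster concerns the coding exon 4 of 11 of transcript ENSMUST00000019470.13, at 101317623 to 101317727, and an intron from 101317392 to 101319455 that skips it and is not annotated in GENCODE vM21. The exon has 105 bases, or 35 codons, and its loss would keep the frame. It is shown in capitals with 63 bases of the exon before it and 49 of the exon after it, plus strand, because the intron cluster that LeafCutter called lies around it:
Psme3 exons 3 to 5: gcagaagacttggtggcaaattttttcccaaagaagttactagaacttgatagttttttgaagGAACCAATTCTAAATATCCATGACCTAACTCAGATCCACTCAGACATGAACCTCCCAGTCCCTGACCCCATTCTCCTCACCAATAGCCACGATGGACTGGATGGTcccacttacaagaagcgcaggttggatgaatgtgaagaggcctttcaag

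The authors' deposited table gave the skipping intron a usage of 0.000328% of the cluster at 5 months and 6.43% at 3 weeks. In the authors' deposited table of 19 months against 3 weeks its usage was 1.12% at 19 months and 6.42% at 3 weeks, and the table of 19 months against 5 months does not list it. The intron after the exon took 52.5% at 5 months and 41.5% at 3 weeks in the first of these tables, and the intron before it 47.5% at 5 months and 52.1% at 3 weeks. The usages are fits over a group, with no value per library and no SD. DIEGO, which scores the abundance of each junction within its gene, had 331 junctions of 39 members at 5 months against 3 weeks. In the authors' deposited table, 2 junctions of Psme4 had a q-value of 0.0464, where 1.48% of all junctions passed 0.05, and 1 junction of Psma1 had 0.0489 at 19 months against 3 weeks, where 0.69% passed. The p-value behind all of them, 0.0209, is the smallest in the tables. No member junction, and 0% of all junctions, passed at 19 months against 5 months, and the tables' own mark of significance was set for 0 junctions.

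**Figure D5:**
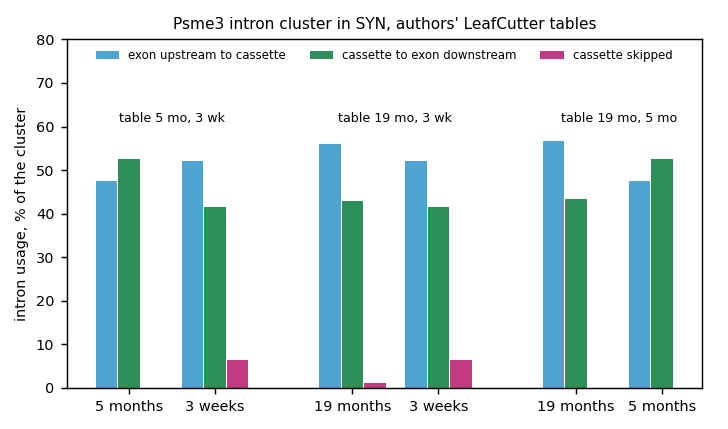
Usage of the 3 introns of the Psme3 cluster (vertical axis, percent of the cluster) in SYN, for each pair of ages of the authors' tables. The intron that skips the exon is visible at 3 weeks, at 6.43% and 6.42%, and is at 1.12% or less at the later ages in the 2 tables that list it.

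Promoters were read to describe what sequence the members share. RefSeq gave a window of 300 bases, from 250 before to 50 after the gene start on GRCm38.p6, for 40 of the 48 genes. Both strands were searched for 7 motifs, all reported here. The antioxidant response element core TGACNNNGC, which NFE2L1 and related factors bind, occurred in 6 of 40 members, 15.0%, and in 14% of 27025 genes. Its looser form TGANNNNGC, which contains the core, occurred in 57.5% and 45.0%, and TGACTCAGC, which also lies within both, in 0% of members and 0.503% of genes. The core of the interferon-stimulated response element occurred in 12.5% of members and 3.99% of genes, and CCAAT in 35.0% and 41.1%. The ETS site CCGGAAG occurred in 14 members, 35.0%, and in 9.93% of genes, and the palindrome bound by nuclear respiratory factor in 7 members, 17.5%, and in 5.19% of genes. The 6 genes with TGACNNNGC were Psmb5, Psmb6, Psmc6, Psmd9, Psmd12 and Psme4. A match is a stretch of letters and not a shown binding site. The windows of Psme4, the member with the clearest fall, and of Psmb6, which was not called, are printed on the gene's strand with the match in capitals, at chr11:30771525-30771824 and chr11:70525107-70525406, both on the plus strand:
Psme4: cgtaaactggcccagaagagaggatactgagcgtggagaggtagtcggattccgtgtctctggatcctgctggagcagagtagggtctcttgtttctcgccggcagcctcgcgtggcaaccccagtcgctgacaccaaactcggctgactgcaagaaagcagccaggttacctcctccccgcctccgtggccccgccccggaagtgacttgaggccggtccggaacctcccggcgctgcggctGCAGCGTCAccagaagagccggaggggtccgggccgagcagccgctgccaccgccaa
Psmb6: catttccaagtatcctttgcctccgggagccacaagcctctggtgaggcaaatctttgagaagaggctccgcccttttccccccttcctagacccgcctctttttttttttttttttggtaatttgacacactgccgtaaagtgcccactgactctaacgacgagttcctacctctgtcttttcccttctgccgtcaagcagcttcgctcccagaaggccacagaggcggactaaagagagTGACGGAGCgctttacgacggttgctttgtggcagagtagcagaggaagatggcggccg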

How the data were processed

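RNA of 16 cortex libraries, 12 SYN and 4 TH, was analysed from the deposited tables. The authors' count table holds whole numbers of reads per gene; per the submitters' processing notes it was made with bcl2fastq 2.20.0.422, cutadapt 1.18, Trimmomatic 0.38 and featureCounts of Subread on GRCm38.p6, and per the file headers from unique alignments. Neither the aligner nor the strand setting of the counting (the kit is stranded, per the labels) nor the gene annotation is stated in them. The deposited splicing tables of the authors give p-values and adjusted p-values (q-values), intron usage as a fraction of its cluster, and a score of abundance change whose sign convention and base are not stated; they rest on LeafCutter and DIEGO and give no value per library.

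Members and lists were chosen with earlier results of these data known. CPM were scaled by TMM over all 16 libraries, and RPKM divides them by the deposited gene length. Tests used edgeR 4.0.16 (quasi-likelihood, robust, filterByExpr, Benjamini-Hochberg over all genes tested; R 4.3.3), on 8 libraries for SYN against TH and on 12 SYN libraries for the ages, with calls at an adjusted p under 0.05. The series' design text calls the SYN libraries biological replicates; for TH this is not stated, and p-values measure the spread between these libraries. The highest correlation of log2 CPM between 2 libraries was 0.986, so none was a copy of another. Full values are given for the 3 highest and 3 lowest called members of at least 5 CPM per comparison and for the catalytic, immunoproteasome, activator, inhibitor and deubiquitinase genes. Values per library are also given for Psma2, Psma5 and Psmc4, which lie outside this rule. Other genes are named as members, or as the called genes of a list. Alternatives were other scalings, filters, DESeq2 1.42.0, a replicate block, all 16 libraries in 1 fit and each library left out; the fitting step was tested on simulated data. Shared sequence is the share of 50-base windows of the longest coding transcript (GENCODE vM21, GRCm38) found in other genes' transcripts, and promoters are from RefSeq. Adrm1 and Sem1, subunits outside the naming rule, were not counted as members. Figures used matplotlib 3.10.9.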

Additional observations from a re-analysis of the deposited data

Results flagged for a closer look

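Of 128 checks, 32 proteasome genes in 4 groups of 4 libraries, 4 found a library far from the other 3 of its group; chance alone gives about 1 in 20. Psma2 had 7.99 CPM in 19 months SYN replicate 4, below the 13.9 to 15.0 CPM of the other 3. Psma5 had 1.79 CPM in 5 months SYN replicate 4, or 30 counts, above the 0.0816 to 0.224 CPM of the others. In 5 months TH, replicate 4 was lowest for Psmb6, at 11.2 CPM against 14.1 to 14.4 CPM, and highest for Psmd14, at 20.5 CPM against 15.7 to 15.9 CPM.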

How the results depend on the processing

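For 5 months SYN over 5 months TH, 13 to 22 members were called over all alternatives, and upper-quartile scaling left 1 higher and 21 lower; the cause was not tested. Leaving out 1 library gave 13 to 19 calls there, 10 to 16 at 5 months over 3 weeks and 0 at 19 months over 5 months. At 19 months over 3 weeks it gave 6 to 10 calls, 0 to 1 higher and 6 to 9 lower, and no filter left 0 higher. At 19 months over 5 months, no filter called 2 members (1 higher, 1 lower), DESeq2's Wald test 1 (higher) and the replicate block 1 (lower); over all genes these called 292, 310 and 264, against 46. The DIEGO calls, 2 and 1, fell to 0 at q under 0.01, and the LeafCutter call held at 0.01. Of 1205 single-gene values, 1095 kept direction and side of the threshold, 78 lost and 12 gained a call, and 20 uncalled values changed sign.

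The replicate block gave 20, 16 and 12 calls, against 18, 14 and 11, for 5 months SYN over 5 months TH, 5 months over 3 weeks and 19 months over 3 weeks. Same-numbered SYN and TH libraries correlated at 0.0867, 0.0156, 0.0143 and 0.134, and SYN replicates 2 and 3 correlated best with another number. The column names of the count table also give each such pair of libraries the same running number, and whether that marks the same animals is not stated. The block added Psmd14 and Psmd5 as lower in SYN over TH and ended no call there.

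Sign changes were as follows. Psmb6 in SYN over TH was -0.0115 with DESeq2 size factors, -0.0102 with its Wald test and -0.0946 with upper-quartile scaling, and ranged from -0.0372 to 0.107 with 1 library left out, as Psmb5 did from -0.228 to 0.141. At 5 months over 3 weeks the ranges were -0.114 to 0.224 for Psme1 and -0.0882 to 0.0320 for Psme3. At 19 months over 5 months they were -0.0555 to 0.106 for Psmb6, -0.0129 to 0.454 for Psmb8, -0.00681 to 0.311 for Psmf1 and -0.0333 to 0.156 for Psme4. Without both libraries that stand apart, a setting chosen after seeing the data, Psmd14 was 0.0225, Psmf1 -0.0174 and Psmb8 -0.0102 in that comparison. Counts limit Psma5, Psmb8, Psmb9 and Psme2 most.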
